A study of Homo sapiens with 4 samples.

Results

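The ephrin, semaphorin and plexin guidance genes are the ligands and receptors through which neighbouring cells repel or attract each other. They were taken from the gene symbols of a human Clariom D array table, namely all Eph receptors, ephrins, semaphorins of classes 3 to 7, plexins and neuropilins whose transcript cluster carries exactly 1 symbol. This gave 51 of 33458 genes, each represented by its brightest row, judged by the mean of all 4 arrays. SEMA3B shares its row with another gene name and was left out, and EPHB2 was not analysed here. The arrays measured RNA of SAS cells, a line from a human tongue squamous carcinoma, 2 arrays from control cells and 2 from C6orf141-overexpressing cells. The treatment entry, worded alike for all 4 samples, describes stable cells made by transfecting full-length C6orf141 in the pLVX-IRES-Neo vector for 48 h and keeping them under G418 at 1200 μg/mL for 14 days. The labels call the controls scrambled controls, and the methods speak of control cells without naming a vector or G418 for them, so transgene and selection cannot be told apart. Neither the labels nor the methods say whether the overexpression cells are 1 clone or a pool, or that arrays within a group represent independent cultures. The tests below therefore rest on array-to-array spread alone, which may be technical.

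Eph receptors form the largest family of receptor tyrosine kinases, and their ephrin ligands stay attached to the membrane of the cell that makes them. Ephrin-A proteins hang on a lipid anchor, whereas ephrin-B proteins span the membrane and carry a tail that signals back into their own cell. Semaphorins bind plexins, which switch off small GTPases of the Ras and Rap type and loosen adhesion, and most secreted class 3 semaphorins need a neuropilin as co-receptor. These systems were first described in growing axons, but squamous epithelium and its carcinomas use them too, for contact inhibition, migration and the attraction of vessels.

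SAS cells carried a broad but incomplete set of guidance genes. Of the 51 members, 30 (58.8%) had a mean log2 signal above the background level of 5.81, against 48.3% of all genes. Since the table holds no detection calls, this level is the 95th percentile of 400 olfactory receptor genes, which most epithelial cells do not express. The array's negative control rows reached higher, to 7.72 at their 95th percentile, and 22 members (43.1%) lay above that, against 32.7% of all genes. Inside the background level, the nearest members were EPHB1 with a mean of 5.91, EFNA3 with 6.20 and SEMA4C with 6.36, and outside it PLXNC1 with 5.69, PLXNB1 with 5.66 and PLXNB3 with 5.64. Probes of different genes respond differently, so a signal is set against background and against the same gene on other arrays, never against another gene.

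**Figure D1:**
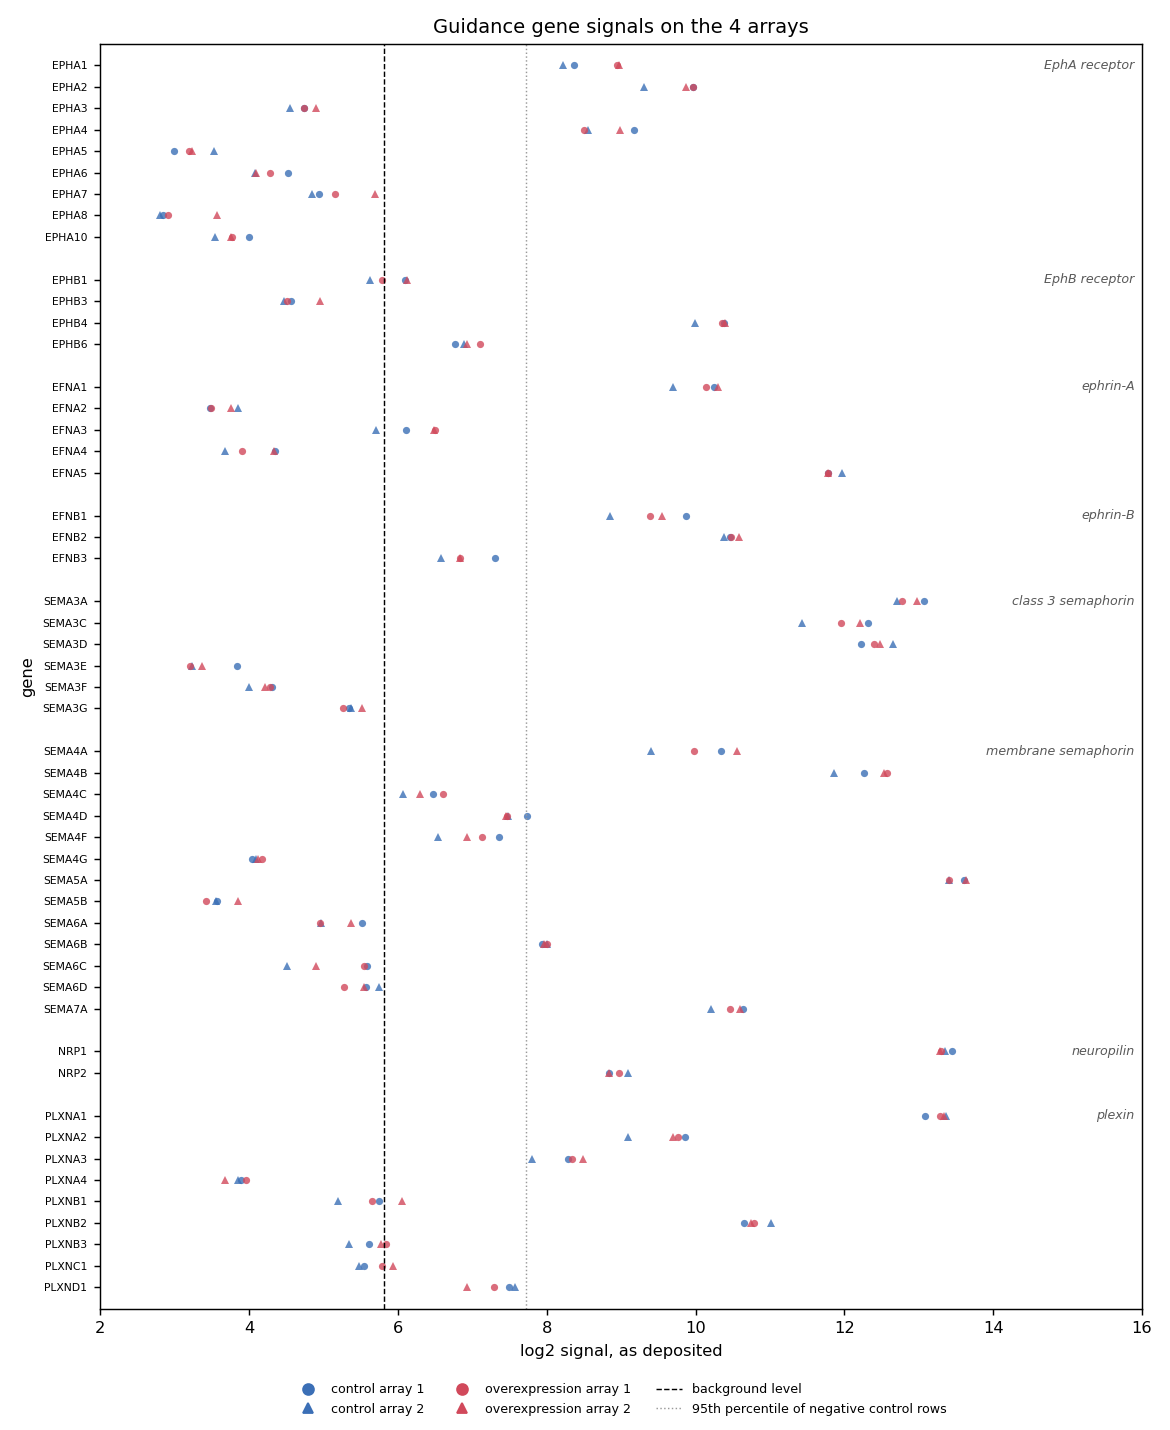
Log2 signal of the 51 guidance genes (rows, by family) on the 2 control arrays (blue) and the 2 overexpression arrays (red), with circles for replicate 1 and triangles for replicate 2. The dashed line is the background level of 5.81, which 30 genes exceed by their mean, and the dotted line is the 95th percentile of negative control rows, 7.72.

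C6orf141 itself read 8.57 and 7.92 in control cells and 11.36 and 12.04 under overexpression. Of 9 listed markers of squamous or other epithelium, KRT17, KRT6A and TP63 were not analysed here. The other 6, KRT5, KRT14, SFN, DSG3, CDH1 and EPCAM, were above the background level. KRT14, with a mean of 7.29, lay below the level of the negative control rows. None of the 4 endothelial markers was above the background level. SYT1 was the only one of 4 neuronal markers above it. Of the 4 measured fibroblast markers COL1A1 and COL1A2 were above it, and of the 4 leukocyte markers CD68 and CD3E, but not PTPRC. COL1A2 and CD3E, with means of 6.93 and 5.87, lay below the level of the negative control rows. Control array 2 stood apart. Among the 16146 genes above the background level, 433 (2.68%) were over 2-fold apart within the controls and 43 (0.266%) within the overexpression group, and over all genes these shares were 2.44% and 0.936%. Many members below are touched by this.

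Overexpression of C6orf141 went with a higher signal of EPHA1 and EFNA3 at an unadjusted p below 0.05, and with no lower member. EPHA1, an Eph receptor of epithelia, was 0.66 higher on the log2 scale by limma (standard error 0.22, 95% interval 0.15 to 1.18). EFNA3, a ligand of that receptor class, was 0.58 higher (standard error 0.24, 95% interval 0.02 to 1.14). These 2 of 51 members (3.92%) compare with 2.11% of all genes, of which 1.04% were higher and 1.07% lower. For genes above the background level, 2 of 30 members compare with 0.898%, of which 0.415% were higher and 0.483% lower. A test of each gene on its own spread, without the pooling that limma does, called EPHA1 alone. It passed 4.08% of all genes, and 3.84% where the mean exceeded background. With 2 genes in the count, neither share sets the family apart. No member passed after Benjamini-Hochberg adjustment over all 33458 genes (adjusted p = 1.00 for both), nor did any other gene. An exact permutation test of 2 arrays against 2 cannot go below p = 0.333 (two-sided).

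Neither call was stable to leaving out an array. EPHA1 kept a difference between 0.59 and 0.73, but of the 4 fits with an array left out it passed the unadjusted threshold only without control array 1. EFNA3 ranged from 0.38 without control array 2 to 0.78 without control array 1, and only the latter passed. With the replicate number as a block EFNA3 did not pass either, and 1 member was called. The groups did not overlap in 16 of the 51 members, against 29.4% of all genes, and in 9 of the 30 above the background level, against 27.6% of such genes. These 9 were EPHA1, EFNA3, SEMA4B, PLXNA3, EPHB6 and EFNB2 on the higher side and PLXND1, SEMA4D and NRP1 on the lower side. The higher side held 20% of the 30 members and the lower side 10%, against 12.6% and 15% of genes above the background level.

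**Figure D2:**
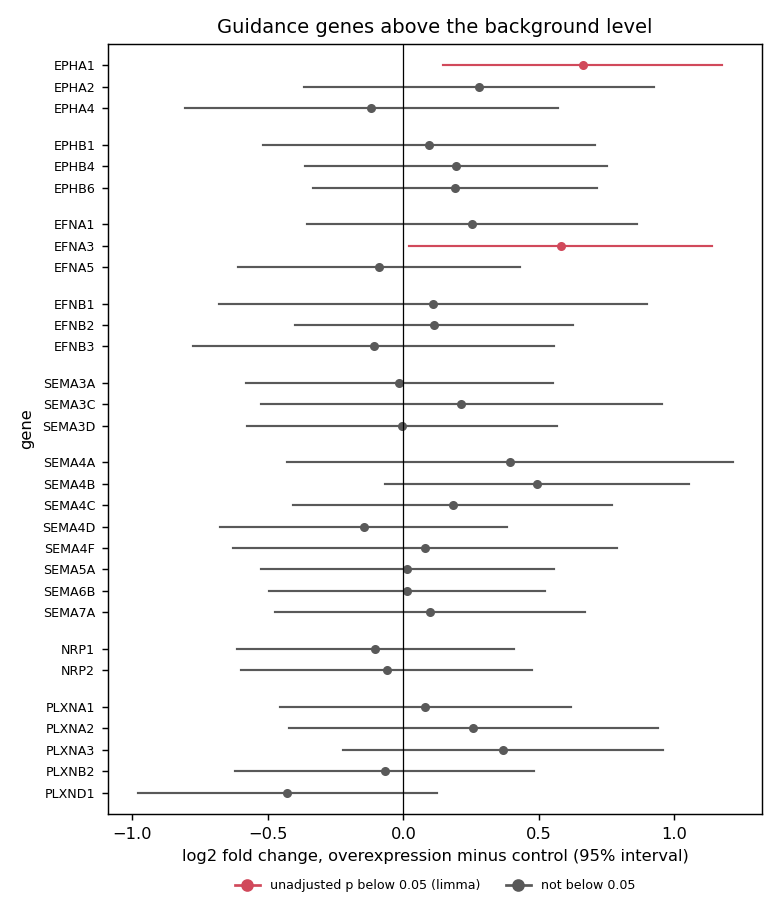
Log2 fold change, overexpression minus control, of the 30 guidance genes above the background level, with 95% intervals from limma (horizontal bars). Red marks EPHA1 and EFNA3, whose intervals, 0.15 to 1.18 and 0.02 to 1.14, do not reach 0.

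Among the receptors for ephrin-A ligands, 3 of 9 were above the background level. EPHA1 read 8.37 and 8.22 in control cells and 8.94 and 8.97 under overexpression, which are means of 8.30 ± 0.10 and 8.96 ± 0.02 (SD, n = 2). The arrays of each group lay close together and the groups did not overlap. EPHA2, the main ephrin-A1 receptor of epithelia and often abundant in carcinomas, read 9.97 and 9.31 in control cells and 9.97 and 9.87 under overexpression. Its low value came from control array 2 alone, and without that array the log2 difference went from 0.28 to −0.055. EPHA4, which binds ligands of both ephrin classes, read 9.17 and 8.55 against 8.50 and 8.98, so that its groups overlapped. EPHA3, EPHA5, EPHA6, EPHA7, EPHA8 and EPHA10, several of them known from the developing brain, had means between 3.03 and 5.16. Within that background range EPHA7 differed by 0.53 and EPHA8 by 0.41, and no direction of expression is read from them.

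Of the 4 measured receptors for ephrin-B ligands, EPHB1, EPHB4 and EPHB6 were above the background level and EPHB3, with a mean of 4.63, was below it. EPHB4, the partner of ephrin-B2 at vessel borders, read 10.38 and 10.00 in control cells and 10.36 and 10.40 under overexpression. Control array 2 was again the low array, and the remaining 3 values lay within a few hundredths of each other. EPHB6, which has lost kinase activity, read 6.77 and 6.89 against 7.11 and 6.93. Its groups did not overlap, but the difference of 0.19 had a standard error of 0.23. EPHB1 read 6.10 and 5.62 against 5.78 and 6.13, on both sides of the background level.

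Ephrin-A genes lie partly side by side, and that made their signals of interest. EFNA4, EFNA3 and EFNA1 follow each other on chromosome 1, yet EFNA1 and EFNA3 were above the background level and EFNA4, with a mean of 4.07, was not. The 250 bases before the RefSeq start of each of these neighbours (GRCh38.p14, plus strand) are shown to let their CpG content be compared, with CpG sites in capitals. They lie at chr1:155063490-155063739 for EFNA4, chr1:155078587-155078836 for EFNA3 and chr1:155127626-155127875 for EFNA1.
EFNA4: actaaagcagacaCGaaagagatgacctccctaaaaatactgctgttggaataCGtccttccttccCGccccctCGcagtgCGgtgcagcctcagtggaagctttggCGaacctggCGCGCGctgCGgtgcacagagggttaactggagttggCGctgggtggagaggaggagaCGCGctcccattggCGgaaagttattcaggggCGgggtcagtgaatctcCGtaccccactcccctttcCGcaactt
EFNA3: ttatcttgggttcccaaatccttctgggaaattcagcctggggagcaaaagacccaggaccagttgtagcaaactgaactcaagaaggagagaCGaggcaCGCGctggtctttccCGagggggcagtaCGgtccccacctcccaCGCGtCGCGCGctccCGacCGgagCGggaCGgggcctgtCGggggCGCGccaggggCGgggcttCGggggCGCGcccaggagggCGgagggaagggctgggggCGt
EFNA1: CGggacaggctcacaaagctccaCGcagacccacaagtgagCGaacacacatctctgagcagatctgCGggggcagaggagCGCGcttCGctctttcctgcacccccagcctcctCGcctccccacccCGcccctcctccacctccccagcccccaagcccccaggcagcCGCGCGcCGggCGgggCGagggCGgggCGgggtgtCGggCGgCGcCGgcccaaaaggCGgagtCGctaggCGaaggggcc
The windows hold 17, 23 and 24 CpG sites, with the fewest in that of EFNA4, the neighbour at background level. Over all genes found in RefSeq, the medians were 21 above the background level and 6 below it. A link between CpG content and signal was not tested.

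EFNA3 read 6.11 and 5.71 in control cells and 6.50 and 6.48 under overexpression, means of 5.91 ± 0.28 and 6.49 ± 0.01 (SD, n = 2). The 2 overexpression values nearly coincided and lay above both controls, but all 4 were below the 95th percentile of negative control rows. RefSeq also lists a read-through gene, EFNA4-EFNA3, whose RNA could not be told apart from that of EFNA3 here. EFNA1, a lipid-anchored ligand induced by inflammatory signals in many cells, read 10.24 and 9.70 against 10.14 and 10.31. Its difference of 0.25 became −0.018 without control array 2. EFNA5 read 11.78 and 11.96 in control cells and 11.78 on both overexpression arrays, a difference of −0.09 with a 95% interval from −0.61 to 0.43. EFNA2, with a mean of 3.64, was at background.

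All 3 ephrin-B genes were above the background level. EFNB2, the ligand that marks arterial endothelium in vessels, read 10.46 and 10.38 in control cells and 10.48 and 10.59 under overexpression. The groups did not overlap, though the difference of 0.11 was smaller than its standard error of 0.22. EFNB1 read 9.87 and 8.86 against 9.39 and 9.55, with a step of −1.02 from control array 1 to control array 2. It was the only 1 of the 30 members above the background level whose controls were over 2-fold apart. Both overexpression arrays lay between them. EFNB3 read 7.31 and 6.58 against 6.84 and 6.83, again with the overexpression values inside the gap of the controls.

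Class 3 semaphorins, the secreted class, split into 3 genes above the background level and 3 below. SEMA3A, the classical repellent of axons that also holds back vessels, read 13.08 and 12.71 in control cells and 12.77 and 12.98 under overexpression. SEMA3C read 12.31 and 11.43 against 11.96 and 12.21, and SEMA3D read 12.22 and 12.66 against 12.39 and 12.48. In all 3 the groups overlapped and the control arrays differed more than the overexpression arrays. Control array 2 was the low array for SEMA3A and SEMA3C but the high array for SEMA3D. SEMA3E, SEMA3F and SEMA3G had means of 3.41, 4.20 and 5.37.

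SEMA3A, SEMA3C, SEMA3D and SEMA3E lie in the same stretch of chromosome 7. The windows of SEMA3C and SEMA3E, at chr7:80922390-80922639 and chr7:83649140-83649389 (GRCh38.p14, minus strand), are shown because both are poor in CpG sites, with 2 and 6 in capitals, although only SEMA3C was above the background level.
SEMA3C: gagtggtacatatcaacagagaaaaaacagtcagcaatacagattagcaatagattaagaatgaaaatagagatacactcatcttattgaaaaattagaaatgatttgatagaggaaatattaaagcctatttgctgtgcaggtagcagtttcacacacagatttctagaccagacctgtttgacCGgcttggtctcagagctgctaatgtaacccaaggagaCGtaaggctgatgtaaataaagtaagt
SEMA3E: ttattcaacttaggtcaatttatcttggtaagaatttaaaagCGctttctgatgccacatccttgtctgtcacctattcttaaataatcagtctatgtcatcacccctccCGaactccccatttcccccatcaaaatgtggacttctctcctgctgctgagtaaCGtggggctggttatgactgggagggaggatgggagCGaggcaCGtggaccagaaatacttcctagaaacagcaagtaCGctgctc
The window of SEMA3D, which was above the background level, holds 13 CpG sites, and no window was found for SEMA3A. All windows belong to the RefSeq start of each gene, and transcripts from other starts were not looked at.

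SEMA3A also has a dimmer pair of rows. The middle row gave 7.42 and 6.43 against 6.88 and 6.95, a difference of −0.01 like that of the brightest row, −0.02. The dimmest, with a mean of 4.87, differed by 0.80, below the background level, and passed the unadjusted threshold. EPHA4, EPHB1, NRP1 and SEMA4D have a second row each, whose differences were −0.23, −0.23, −0.21 and 0.23, and the sign was opposite to that of the brighter row for EPHB1 and SEMA4D.

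Of the 13 membrane-bound semaphorins, 8 were above the background level. SEMA4B read 12.26 and 11.86 in control cells and 12.58 and 12.53 under overexpression. After EPHA1 and EFNA3 it had the smallest p of the members above the background level, with a log2 difference of 0.49 (standard error 0.24, 95% interval −0.07 to 1.05). Its groups did not overlap, and it passed the unadjusted threshold only with trend and robust settings or without control array 1. Without control array 2 the difference was 0.29. SEMA4A, known from the immune system, read 10.35 and 9.41 against 9.99 and 10.55, and its difference of 0.39 turned to −0.078 without control array 2.

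SEMA4D, a ligand of plexin-B1 that tumours use to draw in vessels, read 7.73 and 7.48 against 7.46 and 7.45. The overexpression arrays lay just under the lower control, a difference of −0.15 with a standard error of 0.23. SEMA4C read 6.47 and 6.07 against 6.60 and 6.30, and SEMA4F 7.36 and 6.54 against 7.14 and 6.92. Both had control array 2 as their lowest value. SEMA5A, a semaphorin with thrombospondin repeats, read 13.61 and 13.40 against 13.41 and 13.63, and SEMA6B 7.937 and 8.005 against 8.003 and 7.966. For SEMA6B all 4 arrays lay within 0.07 of each other, with a 95% interval of the difference from −0.50 to 0.52. SEMA7A, which is lipid-anchored and binds plexin-C1 and integrin β1, read 10.64 and 10.21 against 10.46 and 10.59. SEMA4G, SEMA5B, SEMA6A, SEMA6C and SEMA6D had means between 3.60 and 5.53.

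The 5 plexins above the background level were PLXNA1, PLXNA2, PLXNA3, PLXNB2 and PLXND1. PLXNA1, a receptor for class 3 semaphorins together with neuropilins, read 13.09 and 13.37 in control cells and 13.28 and 13.34 under overexpression. PLXNA2 read 9.86 and 9.09 against 9.77 and 9.70, and PLXNA3 read 8.29 and 7.80 against 8.33 and 8.49. The difference of PLXNA2, 0.26, turned to −0.13 without control array 2, while PLXNA3, whose groups did not overlap, went from 0.37 to 0.12. PLXNB2, which is common in epithelia, read 10.65 and 11.02 against 10.78 and 10.75. PLXND1, the receptor of SEMA3E in vessels, read 7.50 and 7.58 against 7.29 and 6.93. This was the largest negative difference among the 30 members above the background level, −0.43 (standard error 0.24, 95% interval −0.98 to 0.12). With any 1 array left out it lay between −0.61 and −0.25, and the separated groups fix its sign. All 4 values of PLXND1 were below the 95th percentile of negative control rows, 7.72. PLXNA4, with a mean of 3.85, and PLXNB1, PLXNB3 and PLXNC1 were below the background level in the mean of all 4 arrays. For PLXNB3 and PLXNC1 both overexpression arrays were above both controls, by 0.33 and 0.34 in the mean.

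Both neuropilins were above the background level. NRP1, which also binds VEGF, read 13.44 and 13.35 in control cells and 13.30 and 13.29 under overexpression. All 4 values lay close together, and the difference of −0.10 was less than its standard error of 0.22. NRP2 read 8.83 and 9.10 against 8.97 and 8.84, with overlapping groups.

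Ligand and receptor partners were then matched. Each ephrin was listed with every Eph receptor of its class, without regard to how strongly single pairs bind. Of 93 listed pairs with both genes measured, 36 had ligand and receptor above the background level, and 21 had both above the level of the negative control rows. They joined 14 ligands to 13 receptors or co-receptors. The 9 pairs of ephrin-A and EphA genes came from EFNA1, EFNA3 and EFNA5 with EPHA1, EPHA2 and EPHA4. Another 9 joined the 3 ephrin-B genes to EPHB1, EPHB4 and EPHB6, and 3 joined them to EPHA4 across classes. Both genes were above the negative control rows in 2 of the 9 ephrin-B with EphB pairs and 6 of the 9 ephrin-A pairs. The same held for 2 of the 3 cross-class, 7 of the 8 class 3 semaphorin and 4 of the 7 membrane semaphorin pairs. Among class 3 semaphorins, SEMA3A met NRP1, PLXNA1, PLXNA2 and PLXNA3, SEMA3C met NRP1, NRP2 and PLXND1, and SEMA3D met NRP1. Membrane semaphorins made 7 pairs, of SEMA4A, SEMA4C and SEMA4D with PLXNB2, SEMA4A with PLXND1, SEMA5A with PLXNA1 and PLXNA3, and SEMA6B with PLXNA2.

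**Figure D3:**
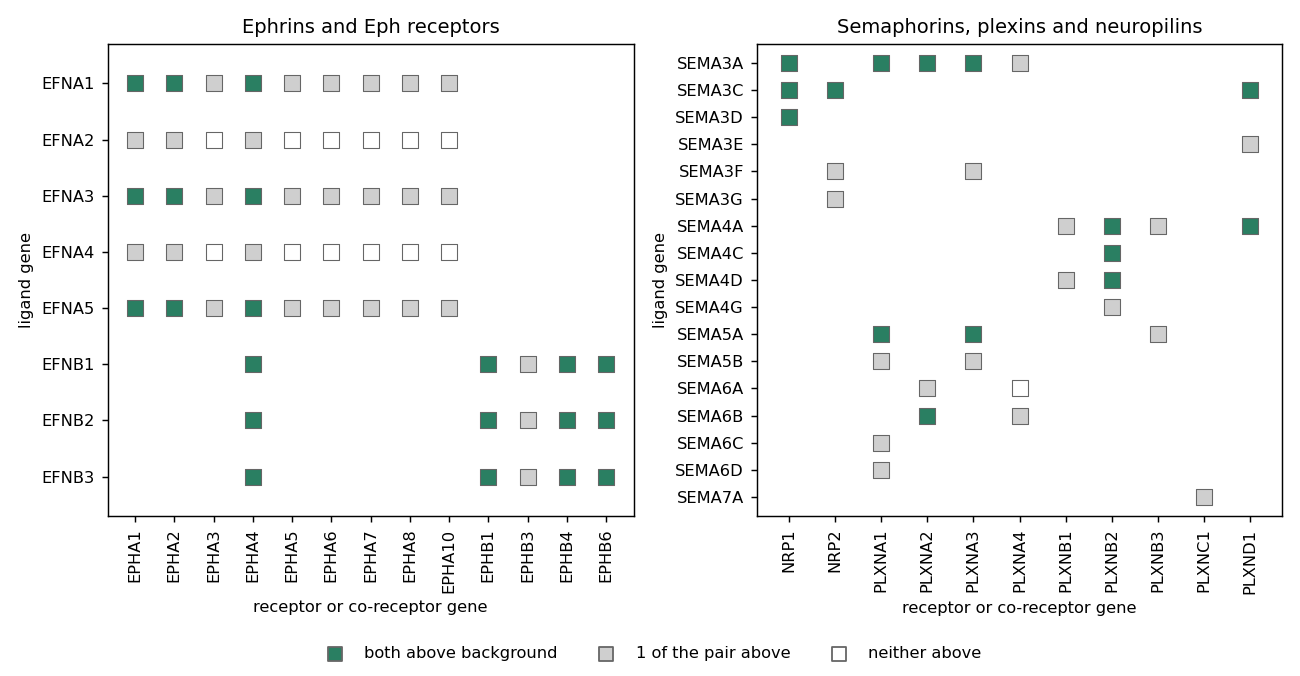
Ligand genes (vertical axis) against receptor or co-receptor genes (horizontal axis), with a square for each listed pair. Ephrins are listed with all receptors of their class. Green squares mark the 36 pairs with both genes above the background level, grey squares pairs with 1 gene above it and white squares pairs with neither.

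For SEMA7A, SEMA4D, SEMA4A and SEMA5A, all above the background level, a listed receptor lay just under that level. PLXNC1, a receptor of SEMA7A, had a mean of 5.52 in control cells and 5.86 under overexpression. PLXNB1, a receptor of SEMA4D and also listed for SEMA4A, had 5.47 and 5.86. PLXNB3, listed for SEMA4A and SEMA5A, had a mean of 5.64 over all 4 arrays. These receptors all fell below 5.81 in the mean of all 4 arrays, and each exceeded it on 1 array only. This was overexpression array 2 for PLXNC1 (5.93) and PLXNB1 (6.06) and overexpression array 1 for PLXNB3 (5.84). So near the level, none of them is read as present or absent. SEMA4D itself, at 7.53, lay below the level of the negative control rows. ITGB1, the other receptor named for SEMA7A, read 16.76 and 16.62 in control cells and 16.75 and 16.82 under overexpression. PLXND1 was above the background level, though below that of the negative control rows, while the mean of its ligand SEMA3E was 3.41. EPHA1 and EFNA3 were the only members with an unadjusted limma p below 0.05, and they are listed as a pair by class. That theirs was the only pair with both genes called follows from this and adds nothing to it. EFNA3 also lay below the level of the negative control rows, and the values of both genes share the same 4 arrays. Signals of RNA do not show on which cells or in what amount the proteins sit.

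The members as a whole shifted little. Their median log2 fold change was 0.09 over all 51 and 0.10 over the 30 above the background level, where the median over all genes was −0.00. Of these 30, 20 had a positive difference, against 49.3% of all genes above the background level. Control array 2 moved with this result. It was lower than control array 1 in 22 of the 30 members (73.3%), against 56.9% of the genes above the background level, and in 19 of the 30 it was the lowest of the 4 arrays (63.3% against 36.5%). The median gap between the control arrays was 0.40 for these 30 members, against 0.27 for all genes above the background level, and between the overexpression arrays it was 0.12 against 0.16.

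Without control array 2 the median over the 51 members was −0.018, 13 of the 30 above the background level had a positive difference, and 15 of the 30 changed sign. Without control array 1 the median was 0.25, and EPHA1, EFNA3, SEMA4B, SEMA4A and PLXNA2 passed an unadjusted p below 0.05. Without overexpression array 1 the members that passed were EPHA7 and EPHA8, both below the background level and neither of them called with all arrays, and without overexpression array 2 none passed. EPHA1, EFNA3, SEMA4B, PLXNA3, EPHB6 and EFNB2 stayed positive and PLXND1, SEMA4D and NRP1 negative with either control array left out, which their separated groups ensure. EPHB4, whose groups overlapped, also stayed positive, but only at 0.00185 without control array 2.

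**Figure D4:**
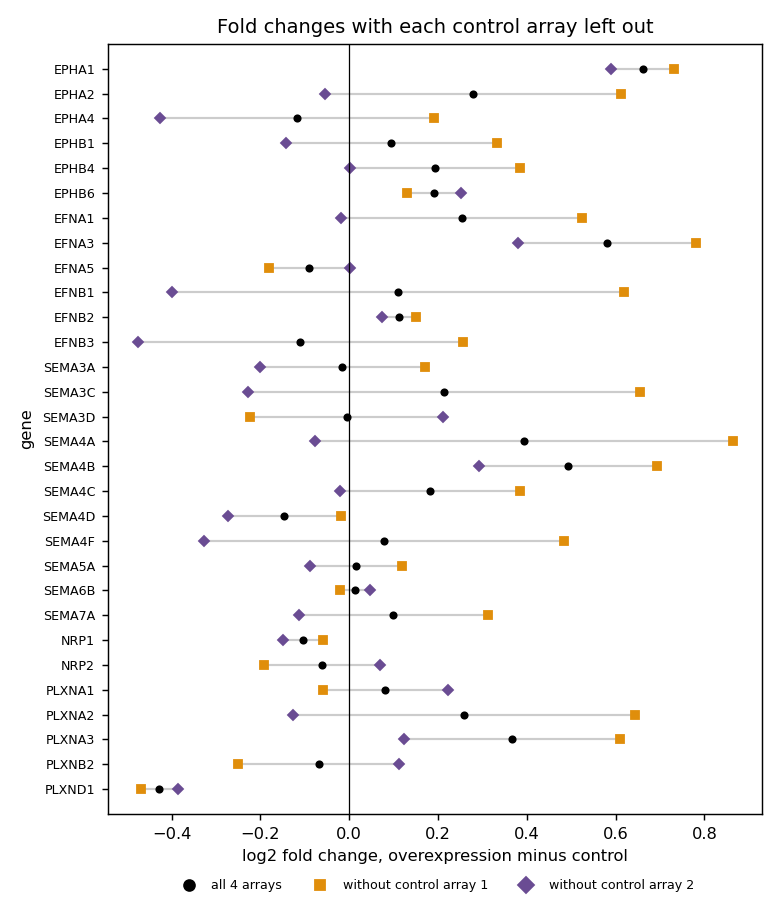
Log2 fold change, overexpression minus control, of the 30 guidance genes above the background level, with all 4 arrays (black), without control array 1 (orange squares) and without control array 2 (purple diamonds). For 15 genes the purple and black points lie on opposite sides of 0.

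Genes that work with these receptors were then examined by lists. Of 28 measured Eph and ephrin signalling genes, 25 were above the background level and 0 rose or fell at an unadjusted p below 0.05, with a median of 0.06. Of 32 measured genes of semaphorin and plexin signalling, 23 were above it and 0 passed, with a median of 0.08. Of 26 measured netrin, slit and RGM genes with their receptors, 10 were above it and 0 passed. The share over all genes was 2.11%. FURIN, a protease that processes semaphorins, read 10.52 and 10.77 against 11.05 and 11.28 (log2 difference 0.52, standard error 0.24). SRC, a kinase below Eph receptors, read 13.02 and 11.84 against 12.98 and 13.04, with control array 2 as its low value, and CRMP1, a mediator of SEMA3A signals, read 8.75 and 9.22 against 9.16 and 9.55.

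Where 2.11% of all genes passed, 1 of 11 measured co-receptors did, MST1R. This receptor tyrosine kinase, a partner of plexin-B proteins, read 9.96 and 9.49 in control cells and 10.21 and 10.46 under overexpression, a log2 difference of 0.62 (standard error 0.26, limma adjusted p = 1.00). Its groups did not overlap, but of the 4 fits with an array left out it passed only without control array 1 (0.85), and it had 0.38 without control array 2. Its relative MET read 13.55 and 13.46 against 13.36 and 13.46. Of the 5 VEGF family ligands, VEGFD passed at a log2 difference of −0.58, with signals from 4.24 to 4.94, all below the background level. Of the fits with an array left out it passed only without control array 1. VEGFA read 16.08 and 15.96 against 16.08 and 16.04, and the VEGF receptor KDR was at background.

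Promoter sequence was compared for the 45 members found in the RefSeq promoter table. In the 250 bases before the start, the members above the background level had a median of 20 CpG sites (26 members, 2 to 46) and those below had 17 (19 members, 3 to 42). Over all genes found in the table, the medians were 21 above the background level and 6 below it. These medians were not tested against each other, and the sets of all genes include the members. Among the members below the background level, SEMA5B, SEMA3G, PLXNB1 and SEMA3E had 3 to 6 sites, at or under the median of 6. The motif TATAAA, searched on both strands, was found in 1 member window, that of EFNB2, against 9.46% of all windows. A match or its absence is a description of these letters only.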

How the data were processed

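RNA of SAS cells was measured on 4 Clariom D arrays, 2 per group, with group and replicate read from each title. The table deposited by the authors gives a log2 value for every transcript cluster on every array. According to the labels and methods, RNA was prepared with WT PLUS reagent, gene-level values came from Expression Console and the authors compared groups in Partek, calling genes at 0.05. Which algorithm summarised and normalized the probes, on which build and in which versions is not stated in the labels or methods. Values ran from 1.62 to 19.27 and were not transformed. Precision is limited by having 4 arrays.

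Of 138745 rows, 2995 array controls were left out. Of the rest, 36176 rows have 1 gene symbol, 1119 have several and 98455 are unnamed here. By gene number 25516 matched RefSeq (GRCh38.p14), and 623 older symbols were updated, through the gene number or, where none matched, through a synonym. The groups were compared by two-sided moderated tests (limma 3.58.1, functions lmFit and eBayes, under R 4.3.3) over all 135750 rows, with Benjamini-Hochberg adjustment over 33458 genes and a threshold of 0.05. The steps were tested on simulated data. The members, gene lists and pairs were chosen with earlier results of these data known. Ephrins were paired with all receptors of their class, the other pairs and the roles are textbook knowledge, and some list members are not analysed here. Every member is named. Values on each array are given for members above the background level that belong to a pair, have 1 of the 10 smallest p or 1 of the 5 widest control gaps. Up to 4 partner genes were taken by smallest p, while VEGFD, MET, ITGB1, VEGFA and KDR were named after their values were seen. Promoter sequences are those of RefSeq, matched by symbol. As alternatives, arrays were centred on their median or quantile normalized, limma was run with trend and robust options, and Student's t-test stood in for the test run in Partek, whose name is not stated. Others were averaging all rows of each gene, only genes above the background level, the replicate number as a block, other background levels and leaving out each array. Deviations of same-numbered arrays did not correlate positively, which cannot exclude pairing, and numbers were not treated as pairs in the main comparison.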

Additional observations from a re-analysis of the deposited data

How the results depend on the processing

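Against 2 higher members, Student's t-test gave 1 (EPHA1, where 4.08% of all genes passed), the replicate block gave 1 (EPHA1), and leaving out 1 array gave 0 to 5. The 2 called without overexpression array 1, EPHA7 and EPHA8, were not among the 2 called with all arrays. The cause was not tested. Where 1 array of a group was left, its spread was taken from the other group. Quantile normalization, median centring, the mean of the rows and the limit to genes above the background level gave the same 2 genes, and trend and robust settings added SEMA4B. No setting gave a lower member or a member past the adjusted threshold. With 1 array left out, the median of the members ranged from −0.018 to 0.25, and the log2 fold change ranged from −0.078 to 0.86 for SEMA4A, −0.055 to 0.61 for EPHA2, −0.018 to 0.52 for EFNA1 and −0.13 to 0.64 for PLXNA2. Deviations of arrays with the same number correlated at −0.112 over all genes, −0.271 over genes above the background level and −0.366 over the members above it. With 2 arrays per group this cannot decide whether the arrays are paired. Crossed pairs as a block, added after the data were seen, called 2 members. Members above the background level numbered 20 at the 99th percentile of olfactory receptor genes, 22 at the negative control rows, 29 with the mean of the rows and 30 or 31 with 1 array left out.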
